A study of Mus musculus with 4 samples.

Results

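The comparison was of endogenous retrovirus and LINE transcripts in Lsh-/- fibroblasts against those in Lsh-/- embryos at the midgestation stage E13.5. Its members were every autosomal locus or flanking interval listed in at least 1 of the 2 Lsh-/- libraries, a locus absent from a table being taken as 0 counts, which gave 448065 regions of the 640693 listed in any of the 4 libraries of the series. These were 5048 LTR loci, 92243 LINE loci, 2298 upstream and 2314 downstream intervals beside LTR loci, and 173282 upstream and 172880 downstream intervals beside LINE loci. The Lsh-/- fibroblast library listed 303219 of them and the Lsh-/- embryo library 342797.

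The series measured RNA by strand-specific paired-end sequencing in 4 libraries, 1 for each genotype and tissue, all labelled C57BL/6J and none given a drug or other treatment in the labels. The fibroblasts were adult tailtip cells, WT or Lsh-/-, which the study obtained as SV40-transformed lines, so that each genotype was 1 line in culture. The embryos were WT or Lsh-/- and were whole E13.5 embryos, a mixture of all tissues, and the number of animals behind each library is not given in the sources used here. With 1 library a group there was no replicate check, no test was possible and every ratio describes the libraries and not the conditions. In bulk samples of this kind, fewer cells of a type and less RNA per cell cannot be told apart.

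Lsh, encoded by Hells, is a chromatin remodelling helicase of the SNF2 family that is needed for normal DNA methylation of repeats. Intracisternal A particles (IAPs) are mouse endogenous retroviruses whose long terminal repeats (LTRs) hold the promoter and are rich in CG dinucleotides, the sites of methylation, and they are silenced in most somatic cells. RLTR10 elements are LTR retrotransposons of the same ERVK class, while LINE-1 elements (L1) carry an internal promoter and no LTR, and most of their copies are truncated at the 5′ end.

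The first 300 bases of 8 elements are shown because near-identical LTRs among the IAPLTR1_Mm elements belonged to loci of opposite tissue preference. They were read from the NCBIM37 (mm9) reference in the direction of the element, with each CG dinucleotide in capitals. The first 3 belonged to IAPLTR1_Mm loci with far more counts in Lsh-/- fibroblasts and the next 3 to IAPLTR1_Mm loci with more counts in Lsh-/- embryos. The last 2 were RLTR10D elements, the first with more counts in fibroblasts and the second with more in embryos.
IAPLTR1_Mm at chr3:73537106-73537405, plus strand: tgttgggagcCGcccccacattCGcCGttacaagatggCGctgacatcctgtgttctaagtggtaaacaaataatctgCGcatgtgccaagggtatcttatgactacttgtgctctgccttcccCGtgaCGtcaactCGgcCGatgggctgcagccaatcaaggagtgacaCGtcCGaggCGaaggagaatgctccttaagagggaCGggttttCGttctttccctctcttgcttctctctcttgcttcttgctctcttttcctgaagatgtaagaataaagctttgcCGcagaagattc
IAPLTR1_Mm at chr4:52904915-52905214, minus strand: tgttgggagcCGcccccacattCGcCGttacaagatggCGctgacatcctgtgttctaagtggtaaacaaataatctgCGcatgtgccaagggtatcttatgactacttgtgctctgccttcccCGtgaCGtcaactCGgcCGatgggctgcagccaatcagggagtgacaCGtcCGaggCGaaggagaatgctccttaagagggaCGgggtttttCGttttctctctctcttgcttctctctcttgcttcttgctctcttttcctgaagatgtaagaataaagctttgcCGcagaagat
IAPLTR1_Mm at chr14:81027245-81027544, minus strand: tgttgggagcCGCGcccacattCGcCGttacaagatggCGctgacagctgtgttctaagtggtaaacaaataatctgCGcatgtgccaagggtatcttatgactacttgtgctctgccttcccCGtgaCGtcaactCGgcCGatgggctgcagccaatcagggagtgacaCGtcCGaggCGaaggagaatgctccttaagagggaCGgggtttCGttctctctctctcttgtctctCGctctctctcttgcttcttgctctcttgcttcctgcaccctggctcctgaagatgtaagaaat
IAPLTR1_Mm at chr15:72918083-72918382, minus strand: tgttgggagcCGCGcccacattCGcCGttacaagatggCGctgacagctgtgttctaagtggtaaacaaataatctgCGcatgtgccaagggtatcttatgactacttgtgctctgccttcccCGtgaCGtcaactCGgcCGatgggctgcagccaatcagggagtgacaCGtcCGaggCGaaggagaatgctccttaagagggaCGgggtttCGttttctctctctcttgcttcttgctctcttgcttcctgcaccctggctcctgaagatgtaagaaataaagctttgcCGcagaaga
IAPLTR1_Mm at chr7:25368850-25369149, minus strand: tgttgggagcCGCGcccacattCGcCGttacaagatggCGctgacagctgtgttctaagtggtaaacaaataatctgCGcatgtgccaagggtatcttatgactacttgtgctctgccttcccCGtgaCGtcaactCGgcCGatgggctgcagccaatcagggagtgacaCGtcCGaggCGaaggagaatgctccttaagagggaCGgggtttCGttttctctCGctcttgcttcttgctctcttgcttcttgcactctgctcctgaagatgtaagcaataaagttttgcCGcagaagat
IAPLTR1_Mm at chr8:127106736-127107035, minus strand: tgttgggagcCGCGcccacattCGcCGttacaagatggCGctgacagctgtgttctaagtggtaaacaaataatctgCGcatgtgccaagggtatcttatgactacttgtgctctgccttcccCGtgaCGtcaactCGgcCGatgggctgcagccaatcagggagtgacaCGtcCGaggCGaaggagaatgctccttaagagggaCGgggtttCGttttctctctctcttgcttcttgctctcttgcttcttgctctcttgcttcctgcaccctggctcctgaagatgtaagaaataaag
RLTR10D at chr9:12097493-12097792, plus strand: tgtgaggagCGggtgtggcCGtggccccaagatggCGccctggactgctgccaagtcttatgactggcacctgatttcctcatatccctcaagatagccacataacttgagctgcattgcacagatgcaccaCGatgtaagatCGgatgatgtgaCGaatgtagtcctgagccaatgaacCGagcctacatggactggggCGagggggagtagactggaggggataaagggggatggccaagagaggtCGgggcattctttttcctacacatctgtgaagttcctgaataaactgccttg
RLTR10D at chr10:37779031-37779330, plus strand: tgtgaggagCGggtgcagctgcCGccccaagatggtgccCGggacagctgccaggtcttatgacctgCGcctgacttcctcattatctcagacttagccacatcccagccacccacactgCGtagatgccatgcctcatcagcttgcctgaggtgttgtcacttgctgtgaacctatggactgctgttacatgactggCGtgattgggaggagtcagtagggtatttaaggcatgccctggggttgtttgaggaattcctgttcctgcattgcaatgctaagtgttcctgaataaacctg

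The 6 IAPLTR1_Mm stretches held 15 to 17 CG dinucleotides and the 2 RLTR10D stretches 9 and 6. Differences between stretches, counted as an edit distance over the 300 bases, did not follow the tissue throughout. The chr14 locus with more counts in fibroblasts differed from the chr8 locus with more counts in embryos by 11 bases, but from the chr3 locus of its own tissue by 36. The chr4 locus of the fibroblasts was 13 bases from the chr7 locus of the embryos and 8 bases from the chr3 locus of the fibroblasts, and the chr15 and chr7 loci of the embryos were 7 bases apart. The 2 RLTR10D stretches were not near-identical, at 103 bases apart. The stretches of 2 further IAPLTR1_Mm loci with far more counts in fibroblasts, at chr8:104533880 and chr7:126561134, are not shown. They were 10 bases apart. From the shown IAPLTR1_Mm loci of the embryos they differed by 33 to 39 bases, and from those of the fibroblasts by 25 to 44. All these sequences are of the reference genome, and the 8 shown describe those elements only.

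The Lsh-/- labels were checked at Hells, read from intervals that overlapped its exons. The interval over exon 11 held 636 counts in WT fibroblasts, 0 in Lsh-/- fibroblasts, 273 in WT embryos and 0 in Lsh-/- embryos. Over exon 12 the counts were 301, 0, 154 and 0 in the same order. The 2 intervals over exon 13 were also low, with 556, 7, 262 and 0 counts and with 571, 77, 275 and 24. Intervals over exons outside this stretch held like counts in both genotypes, as at exon 10 with 546, 671, 221 and 221 counts, and not every exon had an interval. Autosomal counts in the 6 tables summed to between 18058958 in Lsh-/- fibroblasts and 31616047 in WT embryos. Counts were scaled between libraries on intervals beside LINE-1 loci by TMM, an edgeR scaling that trims extreme ratios, and the effective sizes were 16056402 in WT fibroblasts, 16892140 in Lsh-/- fibroblasts, 28337640 in WT embryos and 26906860 in Lsh-/- embryos.

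Transcripts mapped to IAP loci formed 54.5% of all autosomal LTR counts in Lsh-/- fibroblasts (99873 of 183320, 95% exact Clopper-Pearson interval of counting error 54.3 to 54.7%). In Lsh-/- embryos they formed 20.3% (27187 of 134067, 20.1 to 20.5%), against 2.81% in WT fibroblasts (2086 of 74178) and 4.71% in WT embryos (5658 of 120152). Per 1000000 effective counts the summed IAP level was 130 in WT fibroblasts, 5912 in Lsh-/- fibroblasts, 200 in WT embryos and 1010 in Lsh-/- embryos. Both Lsh-/- libraries thus stood above both WT libraries, and the fibroblasts stood above the embryos only in the Lsh-/- pair, with a ratio of 5.85 between Lsh-/- libraries and of 0.651 between WT libraries. Intervals and floors given here cover counting error only.

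The other repeat groups differed far less between the 2 Lsh-/- libraries. Summed RLTR10 counts were 2859 in WT fibroblasts, 12613 in Lsh-/- fibroblasts, 6651 in WT embryos and 12898 in Lsh-/- embryos, a scaled ratio of 1.56 for Lsh-/- fibroblasts over Lsh-/- embryos. The remaining LTR loci had 69233, 70834, 107843 and 93982 counts, with a scaled ratio of 1.20. LINE-1 loci had 365997, 337347, 617844 and 588936 counts, with a ratio of 0.912. The WT ratios of fibroblasts over embryos were 0.759, 1.13 and 1.05 for these 3 groups.

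Locus by locus, the log2 ratio of scaled counts was computed with any count under 3 set to 3, and a locus was called higher in a tissue when the ratio passed 2, which is 4-fold, among loci with at least 10 counts in the 2 libraries. Of all 21382 LTR and LINE loci with that many counts, 14.3% were called higher in Lsh-/- fibroblasts and 7.41% higher in Lsh-/- embryos, and their median log2 ratio was -0.33. This order rested on the floor and the limit. A small prior count in place of the floor gave 3046 and 4384 loci, and a limit of 1 gave 5118 and 7133. The floor is in unscaled counts, so near it a call needed fewer counts in the smaller fibroblast library than in the embryo library. Of 1388 IAP loci, 836 were called higher in fibroblasts (60.2%, Wilson interval over loci 57.6 to 62.8%) and 30 higher in embryos (2.16%, 1.52 to 3.07%), while 212 lay within 1 of 0. The median IAP log2 ratio was 2.45 (95% order-statistic interval over loci 2.33 to 2.55). In the embryos 113 of these loci were listed at 0, against 6 in the fibroblasts. With no count minimum, 860 of 2235 IAP loci were called higher in fibroblasts (38.5%) and 30 higher in embryos (1.34%). A locus under the floor in both libraries cannot be called.

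**Figure D1:**
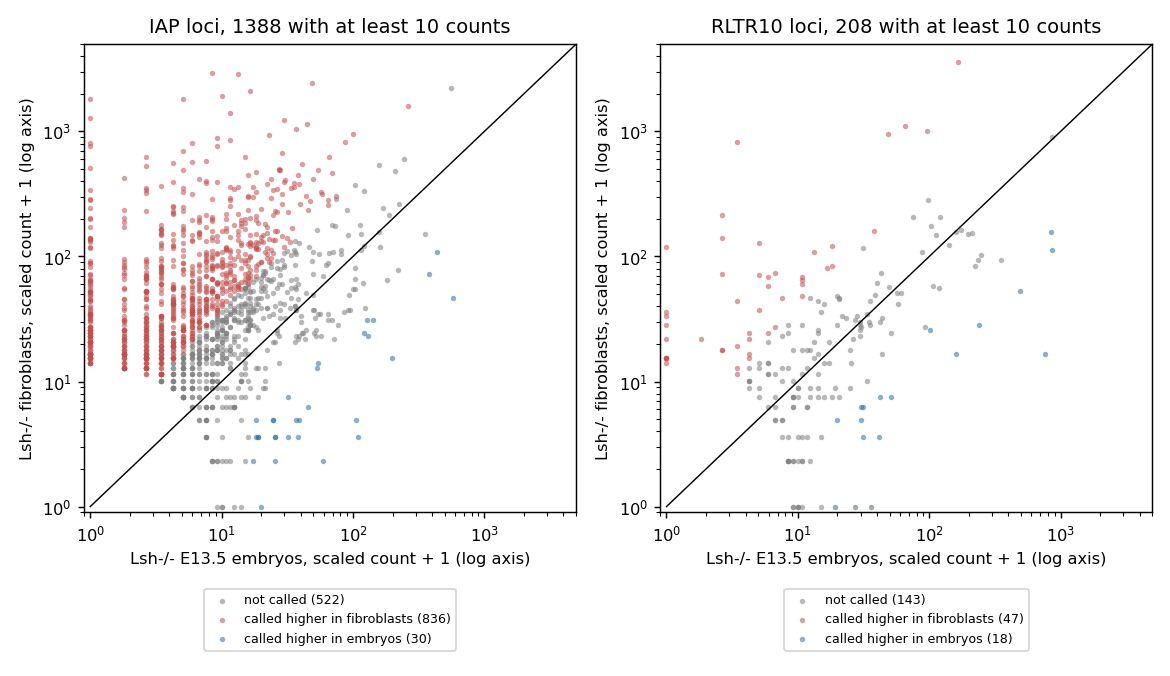
Scaled counts plus 1 of IAP loci (left) and RLTR10 loci (right) in Lsh-/- fibroblasts (vertical, log axis) against Lsh-/- E13.5 embryos (horizontal, log axis), 1 point a locus with at least 10 counts, the line marking equality. Of the IAP points 836 were called higher in fibroblasts (red) and 30 higher in embryos (blue), while of the RLTR10 points 47 and 18 were.

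How far the IAP loci stood apart depended on the scaling. With the total of the LTR table itself as the library size, 446 IAP loci were called higher in fibroblasts and 83 higher in embryos, with a median of 1.32. IAP counts made up most of that total in the Lsh-/- fibroblasts. Scaling on the total of all 6 tables gave 864 and 26, and DESeq2 size factors gave 852 and 28.

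All 4 IAP groups had the same preference but not to the same degree. IAPLTR1_Mm, one of the youngest LTR groups, was summed at 576 counts in WT fibroblasts, 53196 in Lsh-/- fibroblasts, 881 in WT embryos and 10018 in Lsh-/- embryos, a scaled ratio of 8.46 between the Lsh-/- libraries. IAPLTR1a_Mm had 301, 28649, 716 and 7691 counts and a ratio of 5.93. The IAPLTR2 group had 928, 12684, 2694 and 6724 counts and a ratio of 3.0, and all other IAP names together had 281, 5344, 1367 and 2754 counts and a ratio of 3.09. By locus, 322 of 482 IAPLTR1_Mm (66.8%), 336 of 547 IAPLTR1a_Mm (61.4%), 130 of 265 IAPLTR2 (49.1%) and 48 of 94 other IAP loci (51.1%) were called higher in fibroblasts. Higher in embryos were 12, 3, 4 and 11 loci of these groups.

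The small groups among the other IAP names pointed in both directions, and are named after their values were seen. IAPEY_LTR had 29 of 39 loci called higher in fibroblasts and 2 higher in embryos, with a median log2 ratio of 3.48. IAPEY3_LTR had 2 of 15 higher in fibroblasts and 5 higher in embryos, with a median of -0.69, and its summed counts were 70 in WT fibroblasts, 286 in Lsh-/- fibroblasts, 402 in WT embryos and 623 in Lsh-/- embryos. IAPLTR4 had 6 of 18 higher in fibroblasts and 4 higher in embryos.

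**Figure D2:**
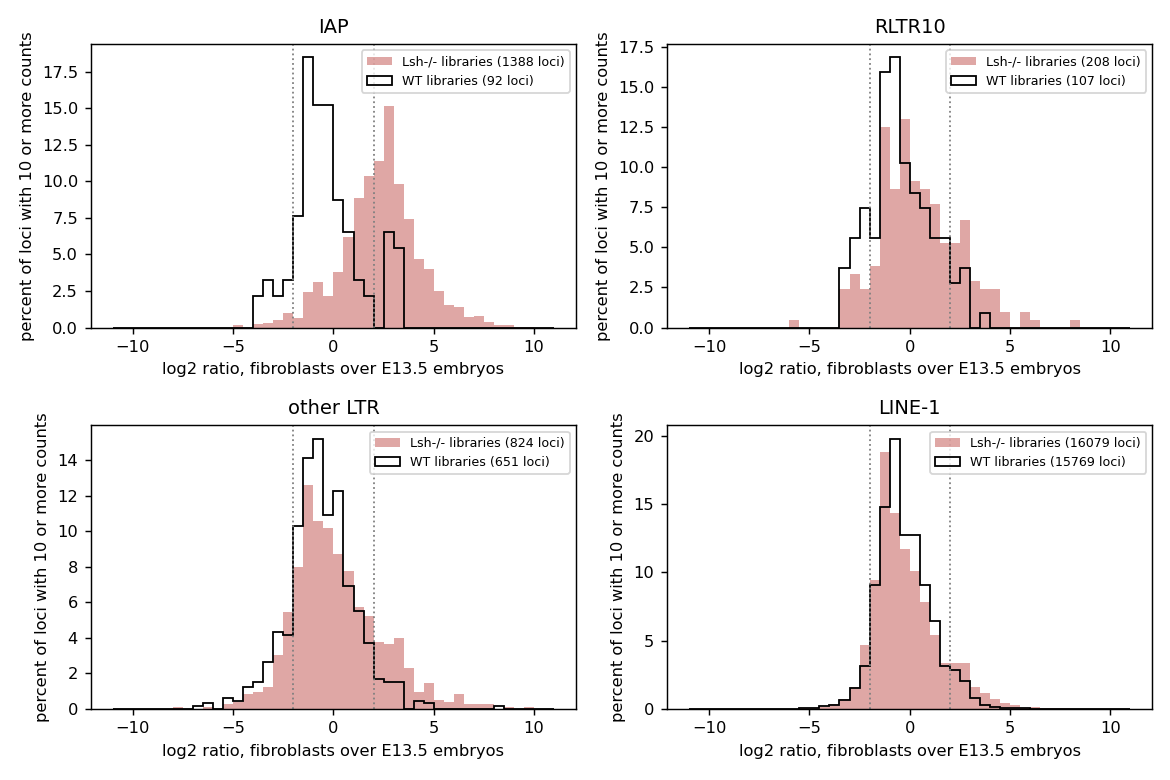
Distribution of the log2 ratio of fibroblasts over E13.5 embryos at loci with 10 or more counts, by repeat group, as the percent of loci in each bin, for the Lsh-/- pair and the WT pair of libraries. The Lsh-/- IAP loci have a median of 2.45 and the WT IAP loci of -0.50, while the LINE-1 medians are -0.53 and -0.46.

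The 5 IAP loci with the most counts in Lsh-/- fibroblasts, among those derepressed there and called higher than in Lsh-/- embryos, were all IAPLTR1_Mm elements of between 5120 and 5362 bp, and none lay within an annotated gene. Derepressed means a log2 ratio above 2 for Lsh-/- over WT of the same tissue, with at least 10 counts in that pair. The locus at chr3:73537106-73542360 (plus strand), 24768 bp from Bche, had 2 counts in WT fibroblasts, 2261 in Lsh-/- fibroblasts, 0 in WT embryos and 9 in Lsh-/- embryos. The element was thus 400-fold higher in Lsh-/- fibroblasts than in Lsh-/- embryos (exact counting interval 210 to 876). A locus at chr8:104528818-104534179 (minus strand), which overlaps 1 other listed locus, had 1, 2189, 1 and 15 counts in the same order and was 232-fold higher (141 to 416).

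The element at chr7:126556245-126561433 (minus strand), 24623 bp from Gp2, had 0 counts in WT fibroblasts, 1860 in Lsh-/- fibroblasts, 0 in WT embryos and 58 in Lsh-/- embryos, a 51.1-fold difference (39.3 to 67.5). At chr4:52900095-52905214 (minus strand), 18490 bp from the olfactory receptor gene Olfr272, the counts were 0, 1621, 0 and 19, a 136-fold difference (86.7 to 226). At chr14:81022408-81027544 (minus strand) they were 0, 1471, 0 and 11, a 213-fold difference (119 to 428). At each of the 5 loci the Lsh-/- fibroblast library was by far the highest, and the Lsh-/- embryo library held some counts but few. The chr8, chr7 and chr4 loci were also derepressed in embryos, with log2 ratios of Lsh-/- over WT embryos of 2.40, 4.35 and 2.74. The chr14 locus was just under the limit there at 1.95, and the chr3 locus had too few counts in the embryo pair to be called.

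The 5 leading IAP loci of the embryos had fewer counts and lay nearer to genes. An IAPLTR1_Mm element at chr15:72911842-72918382 (minus strand), 2439 bp from Chrac1, which encodes a histone-fold subunit of a chromatin remodelling complex, had 1 count in WT fibroblasts, 35 in Lsh-/- fibroblasts, 0 in WT embryos and 704 in Lsh-/- embryos. It was 12.6-fold higher in Lsh-/- embryos than in Lsh-/- fibroblasts (8.99 to 18.3). An IAPLTR2_Mm element at chr2:118380502-118384111 (plus strand), 5078 bp from Bmf, a pro-apoptotic member of the Bcl-2 family, had 0, 11, 1 and 241 counts and was 13.8-fold higher (7.55 to 27.9). Both were by far the highest in the Lsh-/- embryos.

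An IAPLTR4 element at chr10:78875652-78880773 (minus strand) had 0 counts in WT fibroblasts, 23 in Lsh-/- fibroblasts, 0 in WT embryos and 173 in Lsh-/- embryos, a 4.72-fold difference (3.05 to 7.65). An IAPLTR1_Mm element at chr8:127102276-127107035 (minus strand), within the calpain gene Capn9 and on its opposite strand, had 1, 17, 0 and 157 counts, a 5.80-fold difference (3.51 to 10.2). Another at chr7:25363185-25369149 (minus strand) overlapped an exon of the zinc finger gene Zfp575 on the same strand and had 0, 23, 0 and 154 counts, a 4.2-fold difference (2.70 to 6.83). Each of the embryo-leading IAP loci was also above both WT libraries in the Lsh-/- fibroblasts, so that none was silent there. Their log2 ratios of Lsh-/- over WT fibroblasts were 3.47 (chr15), 1.80 (chr2), 2.87 (chr10), 2.43 (chr8) and 2.87 (chr7). All but the chr2 locus were thus derepressed in fibroblasts too.

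**Figure D3:**
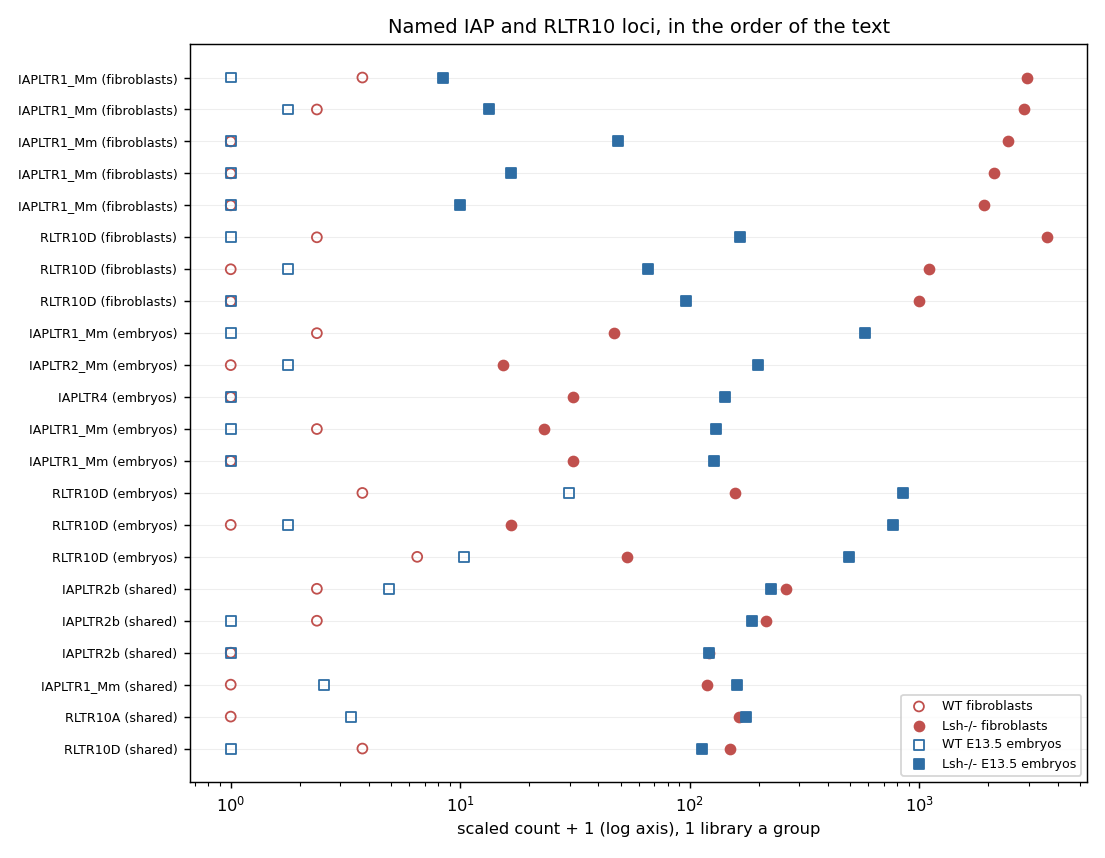
Scaled counts plus 1 (log axis) of the named IAP and RLTR10 loci in the 4 libraries, 1 row a locus and 1 point a library, in the order of the text. The WT points lie to the left at nearly every locus, and the order of the Lsh-/- fibroblast and Lsh-/- embryo points turns between the loci chosen for fibroblasts and for embryos, which is what the choice fixed.

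Elements of like level in both tissues were chosen among loci derepressed in both with a tissue log2 ratio within 1 of 0. Of the 4 leading IAP loci of this kind, 3 were IAPLTR2b elements. The first, at chr9:19567554-19575141, had 1 count in WT fibroblasts, 200 in Lsh-/- fibroblasts, 5 in WT embryos and 274 in Lsh-/- embryos, a log2 ratio of 0.22 (-0.05 to 0.49). The others, at chr5:146986015-146992407 and chr4:3383450-3391674, had ratios of 0.19 (-0.11 to 0.49) and 0.01 (-0.39 to 0.39). An IAPLTR1_Mm element within Pira5 at chr7:3715639-3722744 had 0, 90, 2 and 194 counts and a log2 ratio of -0.44 (-0.81 to -0.07). The first 3 intervals held 0 and the last did not.

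Derepression was then counted in each tissue against its own WT library. Of all LTR and LINE loci with enough counts, 16.3% of 15058 were derepressed in fibroblasts and 7.39% of 25061 in embryos. Among IAP loci 1010 of 1217 (83.0%) were derepressed in fibroblasts and 441 of 672 (65.6%) in embryos. Only 92 IAP loci had at least 10 counts in the 2 WT libraries together. Most thus reached the minimum through the Lsh-/- library of the pair. That favours a call, so these shares follow in part from the minimum. In all, 377 IAP loci were derepressed in both, 633 in fibroblasts alone and 64 in embryos alone. The shared loci were 37.3% of those of the fibroblasts and 85.5% of those of the embryos. Over all LTR and LINE loci, these 377 IAP loci included, 529 were shared, 21.5% of those of the fibroblasts and 28.5% of those of the embryos. A minimum of 50 counts left 52 IAP loci derepressed in both, 369 in fibroblasts alone and 32 in embryos alone.

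A locus that missed the limit in 1 tissue was not thereby shown to be silent there. Of the 633 IAP loci derepressed in fibroblasts alone, 89 were listed at 0 in Lsh-/- embryos and 160 had 1 to 3 counts. Only 134 of the 633 had at least 10 counts in the embryo pair, so that the others could not be called there. Of those 134, 105 had a log2 ratio above 1 for Lsh-/- over WT embryos, and their median of 1.81 was just under the limit of 2. In the direct ratio, which uses the same Lsh-/- libraries that chose these groups and so describes them only, 557 of the 633 were called higher in fibroblasts, with a median log2 ratio of 3.33. Of the 377 shared loci 173 were called higher in fibroblasts and 4 in embryos, with a median of 1.90. Of the 64 loci derepressed in embryos alone 20 were called higher in embryos, with a median of -1.14, and only 18 had enough counts in the fibroblast pair to be called there. Of those 18, 13 had a log2 ratio above 1 for Lsh-/- over WT fibroblasts, with a median of 1.63.

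The counts of both Lsh-/- libraries were gathered on few IAP loci. The 10 IAP loci with the most counts held 16.2% of IAP counts in Lsh-/- fibroblasts and 15.5% in Lsh-/- embryos, and the 100 with the most held 49.1% and 47.6%. The 2 lists of 100 shared 25 loci. Across the 1388 IAP loci the counts of the 2 libraries had a Spearman rho of 0.26, against 0.34 over 208 RLTR10 loci and 0.14 over 16079 LINE-1 loci, where the points share their libraries and the count minimum. Counts were found at 2102 IAP loci in the fibroblasts and at 1745 in the embryos, of 2317 listed in any library.

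IAPLTR1_Mm loci of 5.0 to 5.5 kb, shorter than the elements of just over 7 kb, carried the largest tissue ratio in summed counts. They were 219 loci with 32662 counts in Lsh-/- fibroblasts, 61.4% of all IAPLTR1_Mm counts there, and 2829 counts in Lsh-/- embryos, 28.2%. Their level was 36.8 scaled counts per kb in fibroblasts and 2.0 in embryos, an 18.4-fold difference, and 134 of 173 loci with enough counts were called higher in fibroblasts (median log2 ratio 3.33, 3.05 to 3.84). The 287 loci of 7.0 to 7.5 kb had 13666 and 4282 counts, 8.68 and 1.71 scaled counts per kb and a 5.08-fold difference, with 139 of 221 called (median 2.53, 2.26 to 2.67).

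Per kb, IAPLTR1_Mm elements of 5.0 to 5.5 kb stood above those of 7.0 to 7.5 kb in both Lsh-/- libraries, by a wide margin in the fibroblasts and a narrow one in the embryos. IAPLTR1_Mm loci under 5 kb and of 5.5 to 7 kb had tissue ratios of 5.02 and 2.14 in summed counts. By locus their median log2 ratios were 2.41 (1.61 to 2.89) and 2.84 (1.52 to 3.60). The chr15:72911842-72918382 locus alone held 704 of the 1271 embryo counts of the 5.5 to 7 kb class. In the embryos these classes stood above the 5.0 to 5.5 kb elements, at 3.20 and 5.60 scaled counts per kb. IAPLTR1a_Mm loci in the same 4 width classes, from short to long, had ratios of 6.30, 7.04, 7.08 and 5.46, with no such step in summed counts. Their median log2 ratios were 2.60, 3.41, 2.56 and 2.48. The 5.0 to 5.5 kb class of IAPLTR1a_Mm had only 13 loci with enough counts (median interval 1.17 to 3.89), too few to tell a step by locus. Near-identical elements receive few uniquely mapped reads, and whether this differs with width was not tested.

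**Figure D4:**
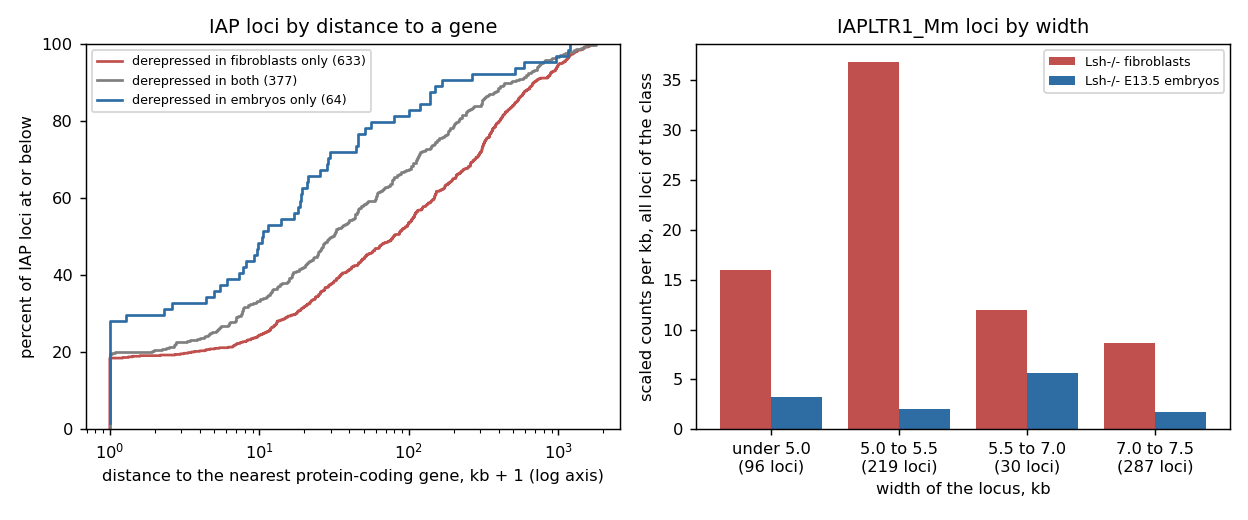
Left, cumulative percent of IAP loci by distance to the nearest protein-coding gene (kb plus 1, log axis) for loci derepressed in fibroblasts only, in both tissues and in embryos only. Right, summed scaled counts per kb of IAPLTR1_Mm loci by width class in the 2 Lsh-/- libraries. The median distances are 78373, 29425 and 9514 bp, and the level at 5.0 to 5.5 kb is 36.8 per kb in fibroblasts and 2.0 in embryos.

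IAP loci derepressed in embryos lay nearer to genes than those derepressed in fibroblasts alone. The median distance to a protein-coding gene was 78373 bp for the 633 loci of the fibroblasts alone, 29425 bp for the 377 shared loci and 9514 bp for the 64 loci of the embryos alone. Within 10 kb of such a gene, or inside it, were 25.1% (Wilson interval over loci 21.9 to 28.6%), 34.2% (29.6 to 39.1%) and 51.6% (39.6 to 63.4%). Shares inside a gene were closer, at 20.2%, 21.0% and 28.1%. By the direct call, 25.6% of the 836 loci higher in fibroblasts, 46.7% of the 212 within 1 of 0 and 60.0% of the 30 higher in embryos (42.3 to 75.4%) were within 10 kb, against 31.1% of all 1388.

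The median number of CG dinucleotides in the first 300 bases was 16 in each of the 3 groups of derepression, and by the direct call it was 16 in loci higher in fibroblasts, 15 in those within 1 of 0 and 15 in those higher in embryos. RLTR10 loci had the same order of distances, with medians of 48717 bp for the fibroblasts alone, 30058 bp for both and 14380 bp for the embryos alone. A locus beside an expressed gene can hold reads of that gene, and leaving out loci over exons gave 621, 373 and 60 IAP loci.

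RLTR10 loci were divided between the tissues, with a median near 0. Of 208 loci with enough counts 47 were called higher in Lsh-/- fibroblasts (22.6%, 17.4 to 28.7%) and 18 higher in Lsh-/- embryos (8.65%, 5.54 to 13.3%), with a median log2 ratio of 0.17 (-0.20 to 0.56). Scaling on the LTR table's own total turned the order, with 20 higher in fibroblasts and 59 higher in embryos and a median of -0.95. RLTR10A had 13 of 56 higher in fibroblasts and 1 higher in embryos, RLTR10C 7 and 6 of 41, and RLTR10D 13 and 7 of 52.

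The 3 RLTR10 loci with the most counts in each Lsh-/- library, among those derepressed and called higher there, were all RLTR10D elements. The one at chr9:12097493-12104430 (plus strand) had 1 count in WT fibroblasts, 2746 in Lsh-/- fibroblasts, 0 in WT embryos and 201 in Lsh-/- embryos, a 21.8-fold difference between the Lsh-/- libraries (18.9 to 25.2). One at chr11:31445550-31449682 had 0, 840, 1 and 79 counts and was 16.9-fold higher in fibroblasts (13.4 to 21.6). One at chr18:37010367-37016732 had 0, 764, 0 and 116 counts and was 10.5-fold higher (8.62 to 12.9). All 3 were far above WT in both tissues and highest in the fibroblasts.

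The opposite order was held by a second RLTR10D element on the same chromosome, at chr18:37395488-37401857, 22794 bp from the protocadherin gene Pcdhb1, with 0 counts in WT fibroblasts, 12 in Lsh-/- fibroblasts, 1 in WT embryos and 931 in Lsh-/- embryos. It was 48.7-fold higher in Lsh-/- embryos (27.7 to 94.6). The locus at chr10:37779031-37783208 (plus strand) had 2, 120, 37 and 1033 counts and was 5.40-fold higher in embryos (4.47 to 6.58). At chr17:26428287-26435519, 5837 bp from the splicing factor gene Luc7l, the counts were 4, 40, 12 and 601, a 9.43-fold difference (6.85 to 13.3). Like levels were seen at the RLTR10A element chr1:100485946-100491454, with 0, 125, 3 and 213 counts and a log2 ratio of -0.10 (-0.43 to 0.23), and at the RLTR10D element chr5:46049638-46054588, with 2, 114, 0 and 136 counts and a ratio of 0.42 (0.05 to 0.79).

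In both tissues together 87 RLTR10 loci were derepressed, 37 in both, 33 in fibroblasts alone and 17 in embryos alone, out of 152 with enough counts in fibroblasts and 173 in embryos. The shared loci were 52.9% of those of the fibroblasts and 68.5% of those of the embryos, against 21.5% and 28.5% over all LTR and LINE loci. With the LTR table's counts as the library size, 24 were derepressed in both, 12 in fibroblasts alone and 24 in embryos alone, which turned the order of the last 2.

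The remaining LTR loci divided by family. Of 824 with enough counts 155 were called higher in Lsh-/- fibroblasts (18.8%) and 102 higher in Lsh-/- embryos (12.4%), with a median log2 ratio of -0.18 (-0.37 to -0.01). Scaled on the counts of the LTR table alone, 87 and 297 were called and the median was -1.31, so the order turned here too. It also turned with a limit of 1, with 245 and 272 called, and with a small prior count in place of the floor, with 155 and 186. By class, 89 of 521 other ERVK loci and 60 of 276 ERV1 loci were higher in fibroblasts, and 58 and 42 higher in embryos. The families named next were chosen after their values were seen.

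RLTR1B had 34 of 55 loci called higher in Lsh-/- fibroblasts and 1 higher in embryos, with a median log2 ratio of 3.07 (1.81 to 3.44). Its loci were derepressed 37 times in fibroblasts alone, 3 times in both and 0 times in embryos alone. RLTR6_Mm, an LTR of murine leukaemia virus-like elements, had 2 of 91 higher in fibroblasts and 28 higher in embryos, with a median of -1.42 (-1.74 to -1.07). It was derepressed at 7 loci in fibroblasts alone, 4 in both and 22 in embryos alone. RLTRETN_Mm, the LTR of early transposons, had 13 of 53 higher in fibroblasts and 2 higher in embryos. RLTR46 had 4 of 34 higher in fibroblasts and 11 higher in embryos.

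The 3 leading loci of the fibroblasts outside IAP and RLTR10 were of different families. An RLTR15 element at chr15:20901926-20908310, which overlaps 1 other listed locus, had 0 counts in WT fibroblasts, 1428 in Lsh-/- fibroblasts, 0 in WT embryos and 0 in Lsh-/- embryos. With a floor of 3 counts for the library at 0, its ratio for Lsh-/- fibroblasts over Lsh-/- embryos was 758, with a lower counting limit of 616. An RLTRETN_Mm element at chr9:35619912-35625484 had 0, 890, 1 and 3 counts, a ratio of 473 with a counting interval of 161 to 2296. An RLTR41 element at chr15:38367666-38373428 was already present in WT, with 24, 776, 32 and 27 counts, and was 45.8-fold higher (31.2 to 69.9).

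In the embryos the 3 leading loci outside IAP and RLTR10 were all RLTR6_Mm elements. One at chr19:3083397-3087208 had 1 count in WT fibroblasts, 22 in Lsh-/- fibroblasts, 54 in WT embryos and 241 in Lsh-/- embryos and was 6.88-fold higher in Lsh-/- embryos (4.44 to 11.2). One at chr13:68352061-68357052 had 7, 3, 13 and 186 counts, a ratio of 38.9 with a counting interval of 13.1 to 190. One within the tubulin chaperone gene Tbce, at chr13:14112480-14117336, had 10, 0, 16 and 73 counts. With the floor of 3 counts its ratio was 15.3, with a lower counting limit of 12.1. Each had 13 or more counts in WT embryos, where the embryo IAP loci named above had 0 or 1.

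Among the loci of like level, an RLTR40 element at chr12:116162169-116168697, which overlaps 6 other listed loci, had 0 counts in WT fibroblasts, 314 in Lsh-/- fibroblasts, 0 in WT embryos and 481 in Lsh-/- embryos, a log2 ratio of 0.06 (-0.15 to 0.26). An RLTR6_Mm element at chr4:143565436-143570378, overlapping 1 other listed locus, had 2, 295, 2 and 347 counts and a ratio of 0.44 (0.21 to 0.67). So this RLTR6_Mm copy was at least as high in Lsh-/- fibroblasts as in Lsh-/- embryos, although the family as a whole was lower in fibroblasts. Of the 91 RLTR6_Mm loci with enough counts, 13 had a ratio above 0. With the LTR table's own total as the library size, the ratio of this copy was -0.69.

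Some LTR transcripts differed between genotypes or between tissues in ways other than derepression. An RLTR1B element at chr8:124356745-124365164, within the predicted gene Gm20388, had 3245 counts in WT fibroblasts, 8 in Lsh-/- fibroblasts, 9534 in WT embryos and 9 in Lsh-/- embryos, and was lower in both Lsh-/- libraries. It was 1 of 4 LTR loci that were lower by more than 4-fold in both. An RLTR4_Mm element at chr11:5905655-5911518, within Camk2b, had 9422, 3535, 51 and 40 counts, a tissue log2 ratio of 7.14 in the Lsh-/- pair and of 8.35 in the WT pair. Another RLTR4_Mm element at chr5:23206672-23214831 had 8533, 761, 8690 and 6129 counts, and was thus low in the Lsh-/- fibroblasts alone. These 3 were named after their values were seen.

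LINE-1 loci gave a mixed picture. Of 16079 with enough counts 1818 were called higher in Lsh-/- fibroblasts (11.3%, 10.8 to 11.8%) and 1228 higher in Lsh-/- embryos (7.64%), with a median log2 ratio of -0.53 (-0.55 to -0.50). The order of these counts rested on the limit and on the floor. A limit of 1 gave 3223 higher in fibroblasts and 5777 higher in embryos, and a small prior count in place of the floor gave 1816 and 3558, while a minimum of 50 counts gave 283 and 324. Derepression was found at 1137 of 11034 LINE-1 loci in fibroblasts (10.3%) and at 1128 of 19778 in embryos (5.70%). The 88 shared loci were 7.74% of the former and 7.80% of the latter, against 21.5% and 28.5% over all LTR and LINE loci, and a limit of 1 gave 325 shared loci. The shares over all loci were largely set by IAP loci, which were 377 of the 529 shared.

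Younger LINE-1 groups had larger shares of loci higher in fibroblasts. L1Md_A had 30 of 96 (31.2%), L1Md_T 45 of 158 (28.5%) and the L1Md_F group 229 of 1004 (22.8%), with 10, 10 and 94 loci higher in embryos. The L1_Mur and L1_Rod names had 133 of 946 higher in fibroblasts and 59 higher in embryos, and the Lx group 654 of 5379 and 416. Among ancient L1M and HAL1 elements 406 of 6545 were higher in fibroblasts (6.20%) and 485 higher in embryos (7.41%). L2 elements had 153 of 2361 and 161, and CR1 and RTE elements 41 of 522 and 45.

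LINE-1 loci higher in Lsh-/- fibroblasts lay more often outside genes, and a share of them lay beside derepressed LTRs. Inside annotated genes were 36.9% of loci called higher in fibroblasts, 82.1% of those called higher in embryos and 77.8% of all with enough counts. Of the 1818 called higher in fibroblasts, 296 lay within 10 kb of an LTR locus derepressed in fibroblasts (16.3%, 14.7 to 18.0%), against 3.25% of all LINE-1 loci with enough counts, and of the 851 that were also derepressed there 233 did (27.4%, 24.5 to 30.5%). Of the 1228 called higher in embryos, 17 lay within 10 kb of an LTR locus derepressed in embryos (1.38%, 0.866 to 2.21%), against 1.53%. Of the 164 among them that were derepressed there, 14 did (8.54%, 5.15 to 13.8%). The LINE-1 calls and the LTR calls use the same Lsh-/- libraries. Whether such LINE-1 reads are of LTR transcripts was not tested.

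Of the 3 leading LINE-1 loci of the fibroblasts 2 lay beside 1 derepressed LTR locus. An L1MA5 element at chr8:30634382-30635459 had 0 counts in WT fibroblasts, 843 in Lsh-/- fibroblasts, 0 in WT embryos and 0 in Lsh-/- embryos. With the floor of 3 counts its ratio for Lsh-/- fibroblasts over Lsh-/- embryos was 448 (lower counting limit 363). An Lx8 element at chr8:30632657-30633622 had 0, 543, 0 and 0 counts and a ratio of 288 (lower counting limit 234). Both lay beside an LTR48 element at chr8:30625827-30631379, at gaps of 3002 and 1277 bp, which had 0, 580, 0 and 5 counts. An L1MC5 element at chr1:119127018-119127543 had 0, 625, 0 and 0 counts, a ratio of 332 (lower counting limit 269) and no derepressed LTR locus within 10 kb.

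In the embryos an L1M5 element at chr7:66922335-66922677 had 0 counts in WT fibroblasts, 32 in Lsh-/- fibroblasts, 0 in WT embryos and 326 in Lsh-/- embryos and was 6.40-fold higher in embryos (4.44 to 9.51). An L1Md_A element at chr9:19544414-19548212 had 0, 28, 0 and 197 counts, a 4.42-fold difference (2.96 to 6.82). An L1_Mus3 element within Rhobtb3, at chr13:76032813-76038933, had 25, 5, 7 and 134 counts, a 16.8-fold difference (7.03 to 52.7). Only the last was higher in WT than in Lsh-/- fibroblasts. The nearest LTR locus derepressed in either tissue lay 18782, 14576 and 440924 bp away, so that none was within 10 kb.

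Like levels were held by an L1MA4 element at chr9:97181979-97182392, with 0 counts in WT fibroblasts, 182 in Lsh-/- fibroblasts, 32 in WT embryos and 301 in Lsh-/- embryos and a log2 ratio of -0.05 (-0.33 to 0.22). An Lx2B element at chr7:66453004-66454153 had 4, 110, 22 and 181 counts and a ratio of -0.05 (-0.40 to 0.30). Both had counts in WT embryos. The L1MA4 element lay 2737 bp from an RLTR44A locus derepressed in either tissue, with 0, 189, 38 and 466 counts. The Lx2B element lay 5002 bp from such an IAPLTR1a_Mm locus, with 0, 13, 0 and 7 counts.

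The tissue ratio of the Lsh-/- pair was compared with that of the WT pair, which shares no library with it. Of 19620 LTR and LINE loci with enough counts in the WT pair, 6.11% were called higher in WT fibroblasts and 6.41% higher in WT embryos. Only 92 IAP loci had that many WT counts, of which 11 were higher in fibroblasts and 10 higher in embryos, with a median of -0.50. Of the 836 IAP loci higher in Lsh-/- fibroblasts, 814 had fewer than 10 counts in the WT pair and 3 were also called higher in WT fibroblasts, while 730 (87.3%) were derepressed in fibroblasts, a call that uses the same Lsh-/- library. Of the 30 higher in Lsh-/- embryos 22 had fewer than 10 WT counts, 2 were also higher in WT embryos and 24 were derepressed in embryos.

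The other groups had more loci with enough WT counts to be called. Among loci higher in Lsh-/- embryos that had them, 7 of 12 RLTR10 loci, 48 of 83 other LTR loci (57.8%) and 347 of 1058 LINE-1 loci (32.8%) were also called higher in WT embryos. Among loci higher in Lsh-/- fibroblasts 4 of 12 RLTR10, 9 of 45 other LTR and 142 of 608 LINE-1 loci (23.4%) were also called higher in WT fibroblasts. Too few WT counts were held by 35, 110 and 1210 of the loci higher in fibroblasts and by 6, 19 and 170 of those higher in embryos. Across loci with enough counts in both pairs the 2 tissue ratios had a Spearman rho of 0.25 over 79 IAP loci, 0.50 over 91 RLTR10 loci, 0.52 over 524 other LTR loci and 0.39 over 10880 LINE-1 loci.

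The intervals between 10 and 11 kb on either side of each locus, with upstream taken as the lower coordinate, carried less of the IAP preference than the elements. Of 137145 intervals with enough counts 9.06% were called higher in Lsh-/- fibroblasts and 9.91% higher in Lsh-/- embryos. On the upstream side of IAP loci 47 of 217 were higher in fibroblasts (21.7%, 16.7 to 27.6%) and 18 higher in embryos, and on the downstream side 46 of 211 (21.8%) and 19. Their medians were 0.16 (-0.19 to 0.42) and 0.17, far below the 2.45 of the IAP loci themselves. With intervals over another listed locus left out, the counts of both sides together changed from 93 higher in fibroblasts and 37 higher in embryos to 56 and 29.

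Few IAP flanks had counts to compare. Of the 633 loci derepressed in fibroblasts alone, 47 had an upstream interval with enough counts, 26 of them called higher in fibroblasts and 3 higher in embryos (median 2.45), and 55 had such a downstream interval, 20 and 4 called (median 0.67). Of the 377 shared loci 42 upstream and 31 downstream intervals had enough counts, with 12 and 6 higher in fibroblasts and medians of 0.57 and -0.07. Beside the 64 loci of the embryos alone 17 and 6 intervals had enough counts and 0 were called higher in embryos. RLTR10 flanks had 15 and 13 higher in fibroblasts and 12 and 11 higher in embryos, of 109 and 125.

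Genes of the cell types and of repeat silencing were read from flanking intervals that overlapped their exons. The labelled fibroblasts had few counts for several fibroblast genes. Of 14 fibroblast markers 0 were called higher in Lsh-/- fibroblasts and 9 higher in Lsh-/- embryos, with a median log2 ratio of -2.36. Lum had 0 counts in Lsh-/- fibroblasts and 8511 in Lsh-/- embryos, Dcn 3 and 1668, Col1a1, the main fibrillar collagen, 7075 and 75094, and Vim, the mesenchymal intermediate filament, 29828 and 41767.

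Markers of other embryonic tissues were higher in the embryos in part. Of 8 muscle genes 6 were called higher in Lsh-/- embryos and 0 in fibroblasts (median -5.02), as for Actc1, a cardiac actin, with 1 count in Lsh-/- fibroblasts and 2591 in Lsh-/- embryos, while Neb, a muscle filament gene, had 45 and 71 and a log2 ratio of 0.01. Of 4 cartilage genes 2 were (median -3.22), as for Col2a1, cartilage collagen, with 40 and 4981 counts, while Sox9, a chondrocyte transcription factor, had 445 and 587 and a ratio of 0.27. Of 7 neural genes 2 were (median -1.10), and Tubb3, a neuronal tubulin, had 268 and 251 counts and a ratio of 0.77. Of 2 liver genes 1 was, and the 1 erythroid gene with enough counts had a log2 ratio of -1.91. The WT and Lsh-/- embryo libraries also differed at liver genes, a difference picked out after the values were seen. Each of the 5 with an interval had fewer counts in Lsh-/- embryos, as for Afp with 478 in WT and 51 in Lsh-/- embryos. Actc1 had 2728 and 2591. The part of such differences in the derepression calls was not tested.

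Among 9 silencing factors 2 were called higher in Lsh-/- fibroblasts and 0 in Lsh-/- embryos, with a median of 0.60. These were Hells itself, at 2.57 over the exons that remain, and Uhrf1, which recruits the maintenance methyltransferase, with 765 and 255 counts and a log2 ratio of 2.26. In the WT pair their ratios were 2.14 and 2.04. Of 4 germline genes with enough counts 2 were higher in fibroblasts, Tex19.1 with 11 and 0 counts and Mov10l1 with 38 and 10, and 1 higher in embryos, Ddx4 with 0 and 25. The part of cell makeup and of these factors in the IAP ratio was not tested.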

How the data were processed

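The authors prepared dUTP strand-specific paired-end mRNA libraries (the labels give total RNA), mapped reads to mm9 with TopHat 1.4.0, kept uniquely mapped reads without mismatches and joined them to repeatmasker loci, per the study's methods. The deposited values are raw counts per locus or per 1 kb interval, not normalised, in 6 tables for each of 4 libraries. Whether a read pair counted once is not given in the sources used here, and overlapping loci share reads, on both strands as it appears, so a repeat and an overlapping gene cannot be told apart. Reads that differ from the reference were lost.

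Libraries were scaled by TMM (edgeR 4.0.16, R 4.3.3) over autosomal intervals beside LINE-1 loci. 34365 loci and intervals off the 19 autosomes were left out. A count below 3 was set to 3, at least 10 counts in a pair were required, and log2 ratios past 2 were called. Intervals are exact (Clopper-Pearson) for ratios and Wilson for shares, at 95%, by Python 3.11.15 and SciPy 1.17.1. Starts in the deposited tables count from 0: 97.9% of 796 long plus-strand IAPLTR loci then begin with TG in the NCBIM37 reference. The cell type, silencing factor and germline gene lists were read from intervals over exons. On simulated data over 5730 LTR loci with counting noise only, 100% of 200 loci changed by 4 on the log2 scale were called, and 9 of 2280 unchanged ones. The planted change was well past the limit of 2, at loci expected to have enough counts, and no spread between samples was simulated. It therefore checks the computation and does not show how often calls between real libraries are wrong.

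Named loci were the 5 IAP, 3 RLTR10, 3 other LTR and 3 LINE-1 loci with the most counts in each tissue's Lsh-/- library among those derepressed and called higher there, the 4, 2, 2 and 2 with the highest smaller count among loci derepressed in both with a ratio within 1 of 0, and the 3 with most counts that were past the limit in opposite directions. A locus overlapping one already named was passed over. Members, lists and rules were chosen with earlier results of these data known. Alternatives were other scalings, including DESeq2 1.42.0, other minimums, limits and floors, and loci over other loci or exons left out.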

Additional observations from a re-analysis of the deposited data

Results flagged for a closer look

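At 23 loci, 3 of them LTR loci, Lsh-/- was more than 4-fold above WT in fibroblasts and more than 4-fold below WT in embryos, and at 10 loci, 1 of them an LTR locus, the reverse held. The difference was not tested. The 3 loci of either kind with the most counts were all of the first. An Lx8 element at chr11:72126149-72126386, over an exon of Xaf1, which encodes an antagonist of the apoptosis inhibitor XIAP, had 0 counts in WT fibroblasts, 151 in Lsh-/- fibroblasts, 96 in WT embryos and 1 in Lsh-/- embryos, with log2 ratios of Lsh-/- over WT of 5.58 in fibroblasts and -4.93 in embryos. An RLTR10C element at chr3:96312130-96319233 had 23, 106, 63 and 2 counts and ratios of 2.13 and -4.32. An RLTR1B element at chr2:94641221-94649634 had 7, 155, 20 and 3 counts and ratios of 4.40 and -2.66. In the Lsh-/- pair nearly all counts at these loci were of the fibroblasts. The scaled log2 ratio of WT fibroblasts over WT embryos was -4.18 at the Lx8 locus (upper counting limit -3.85). It was -0.63 (-1.39 to 0.08) at the RLTR10C locus and -0.70 (-2.18 to 0.60) at the RLTR1B locus, where the intervals held 0.

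IAP loci on the X chromosome, which no comparison used, had 72 counts in WT fibroblasts, 5420 in Lsh-/- fibroblasts, 128 in WT embryos and 1289 in Lsh-/- embryos. Of 95 with enough counts 60 were called higher in Lsh-/- fibroblasts and 2 higher in Lsh-/- embryos.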

How the results depend on the processing

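IAP loci were called higher in Lsh-/- fibroblasts more often than in Lsh-/- embryos under all 10 alternatives, from 393 against 14 to 1103 against 73, and their median stayed above 1. Values that moved were the following. With each table's own total, 446 IAP loci were higher in fibroblasts and 83 in embryos (median 1.32), with 248 derepressed in both, 363 in fibroblasts only and 128 in embryos only. Calls of RLTR10 loci were then 20 and 59 (median -0.95), with 24 derepressed in both, 12 in fibroblasts only and 24 in embryos only, calls of other LTR loci 87 and 297 (median -1.31), and the LINE-1 median was -0.37. With the 6-table total the LINE-1 median was -0.44, with 134 derepressed in both and 2137 in fibroblasts only. That total moved the median of all loci for Lsh-/- over WT fibroblasts from 0.19 to 0.93 and for WT fibroblasts over WT embryos from -0.47 to -1.15, and for the Lsh-/- pair from -0.33 to -0.24. With DESeq2 size factors the LINE-1 median was -0.49.

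With a small prior count added to every scaled count and no floor, loci higher in embryos became 36 RLTR10, 186 other LTR and 3558 LINE-1 loci and 70 IAP flanks, loci derepressed in embryos only 28 RLTR10 and 1823 LINE-1, and LINE-1 loci derepressed in both 137. With a limit of 1, loci higher in embryos were 73 IAP, 52 RLTR10, 272 other LTR and 5777 LINE-1 loci and 98 IAP flanks, and loci higher in fibroblasts 74 RLTR10, 245 other LTR and 3223 LINE-1. Derepressed in fibroblasts only were then 50 RLTR10 and 2406 LINE-1 loci, in embryos only 34 and 4087, and in both 325 LINE-1.

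A minimum of 50 counts, which tests fewer loci, gave 393 and 14 IAP, 22 and 10 RLTR10, 52 and 40 other LTR, 283 and 324 LINE-1 loci and 25 and 18 IAP flanks higher in fibroblasts and embryos, with medians of 3.08 for IAP, 0.00 for other LTR and -0.29 for LINE-1 loci. Derepressed in both, in fibroblasts only and in embryos only were 52, 369 and 32 IAP, 13, 17 and 7 RLTR10, and 15, 222 and 53 LINE-1 loci. With no minimum the medians were 1.41 for IAP and 0.67 for RLTR10, other LTR and LINE-1 loci, where 0.67 is the ratio of the library sizes at loci under the floor in both. Leaving out overlapping loci gave 101 other LTR loci and 56 IAP flanks higher in fibroblasts, and leaving out exons 16 IAP flanks higher in embryos. For the values above the cause was not tested unless stated.

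These were 68 values, and 162 others stayed within 1.5 times a count or within a median's interval. Of the values for named loci 402 kept their side of the limit of 2. Of the loci of like level, 4 left the range within 1 of 0 with each table's own total, the IAPLTR2b locus at chr4:3383450-3391674 at -1.12, the IAPLTR1_Mm locus at chr7:3715639-3722744 at -1.56, the RLTR10A locus at -1.22 and the RLTR40 locus at -1.07. The 2 values that missed the limit of 2 were of the IAPLTR1_Mm locus at chr7:25363185-25369149 with the 6-table total and the L1Md_A locus at chr9:19544414-19548212 with each table's own total, both at -1.98. No paired analysis was possible because each group had 1 library and the labels give no replicate numbers. Depth limits the low loci: the Lsh-/- fibroblast library had the fewest counts of the 4, and the absence of a call in either tissue is not absence of transcript.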
